A study of Mus musculus with 24 samples.

Results

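The MHC class I pathway and its immunoproteasome were followed through 10 genes, namely the heavy chains H2-K1, H2-D1 and H2-T23, their light chain B2m, the peptide transporter and loading genes Tap1, Tap2 and Tapbp, the regulator Nlrc5 and the immunoproteasome subunits Psmb8 and Psmb9. They were taken by symbol from 56065 genes of RNA sequencing of mouse choroid, the vascular layer behind the retina, in 24 libraries. In its methods the paper uses the name choroid for the complex of pigment epithelium, choroid and sclera left once the retina is removed. Without laser there were 4 libraries of wild type choroid and 4 of Ceacam1-/- choroid. The laser label was carried by 9 wild type and 7 Ceacam1-/- libraries. All mice were young adults of a C57BL/6J background and of both sexes, and wild type animals were littermates of Ceacam1-/- animals, in which the first exons of Ceacam1 are deleted in every cell. Laser spots placed in each eye are a model of choroidal neovascularization, the growth of new vessels from the choroid. The labels attach the same laser protocol to all libraries, so laser groups follow the treatment label, and neither the time after laser nor the sex of a mouse is given. The labels do not say that each library is a separate animal, and p-values then measure the spread between these libraries. For choroid RNA without laser the paper counts 4 mice of each genotype. Values are normalized counts, which are estimated reads divided by factors for library size and transcript length, and they summed to between 23704346 and 35094410 per library (median 25708886).

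MHC class I molecules carry short peptides from inside the cell to its surface, where CD8 T cells and natural killer cells inspect them. The proteasome cuts proteins into such peptides, and in immune cells and under interferon-gamma its catalytic subunits are replaced by the immunoproteasome subunits. The peptides are pumped into the endoplasmic reticulum by the TAP transporter, loaded onto heavy chain and B2m with the help of tapasin, and the whole set is switched on by NLRC5, IRF1 and NF-κB at the promoters. The eye is known for low class I levels in its neural tissue, and vessel and immune cells are the usual sources of class I in the choroid.

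The members lie close together. In GRCm39, 8 of the 10 genes are on chromosome 17, in the mouse MHC, and B2m (chromosome 2, 121977957 to 121983594, plus strand) and Nlrc5 (chromosome 8, 95160984 to 95253900, plus strand) lie elsewhere. H2-K1 spans 34214987 to 34219321 (minus strand) and H2-D1 35481691 to 35486475 (plus strand) on chromosome 17. Psmb9 and Tap1 start from opposite strands 226 bases apart, at 34406304 and 34406530 of chromosome 17. Of the 10 members, 8 matched the RefSeq promoter table (GRCm38.p6), whose sequences were found letter for letter in GRCm39. Heavy chain genes and B2m are known to share a promoter module, bound by RFX, CREB and NF-Y proteins, on which NLRC5 acts. The following 30 bases upstream of the start sites of H2-K1 (chr17:34219333-34219362, minus strand), H2-D1 (chr17:35481969-35481998, plus strand) and B2m (chr2:121978090-121978119, plus strand) are shown because they hold letters of that module, with the CREB core TGACG and the NF-Y box ATTGG in capitals:
H2-K1: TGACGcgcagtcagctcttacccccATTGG
H2-D1: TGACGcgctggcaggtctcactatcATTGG
B2m: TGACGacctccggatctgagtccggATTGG
In all 3, ATTGG began 25 bases after the start of TGACG. This spacing, noticed on these sequences, was found in 19 of 32851 RefSeq promoters (0.0578%), each 300 bases long. H2-K1 and H2-D1 were identical at 23 of the 30 bases, and H2-K1 and B2m at 13. Counted on both strands, ATTGG was in the promoters of 7 of 8 members against 37.4% of all promoters, and TGACG in 5 of 8 against 20.8%. The promoters of Psmb9 and Tap1 overlap, and in both counts the same letters were counted for these 2 members.

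Further upstream, the promoters of H2-K1 and H2-D1, though not that of H2-T23, carried an NF-κB motif (3 G, any 2 bases, 2 T and 3 C), and the B2m promoter an interferon regulatory factor motif (GAAA, any 2 bases, GAAA). These stretches are shown with the motif in capitals, at chr17:34219413-34219442 (minus strand) for H2-K1, chr17:35481889-35481918 (plus strand) for H2-D1 and chr2:121978019-121978048 (plus strand) for B2m:
H2-K1: gcccagggctGGGGATTCCCcatctccaca
H2-D1: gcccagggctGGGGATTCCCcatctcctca
B2m: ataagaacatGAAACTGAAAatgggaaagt
H2-K1 and H2-D1 were identical at 29 of these 30 bases. Searched on both strands, the NF-κB motif was in the promoters of these 2 members and in 1.75% of all promoters, and the interferon regulatory factor motif in those of B2m and H2-T23 and in 3.44% of all. None of the 4 motifs overlaps another in these stretches. A match of letters is a description and was not tested for binding.

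Ceacam1, the deleted gene, was read first. Its values without laser were 957.6, 5027, 1242 and 4596 in wild type and 405.0, 504.6, 507.9 and 1171 in Ceacam1-/- libraries. With laser they ran from 773.5 to 8367 (median 996.3) in wild type and from 67.8 to 905.1 (median 335.1) in Ceacam1-/- libraries. The medians were lower in Ceacam1-/- libraries in both states, and the ranges overlapped. A value per gene also counts reads of the exons that remain.

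Several libraries stood apart in tissue content. The 8 photoreceptor markers summed to 534528 in wild type library 21 and 581747 in Ceacam1-/- library 23 without laser. With laser they summed to 939958, 536509 and 1001686 in Ceacam1-/- libraries 14, 15 and 18. No other library exceeded 500000. Keratins of the ocular surface and Trp63, a list of 8 genes written after their values were seen, summed to 538037 in Ceacam1-/- library 28 without laser, 485915 in Ceacam1-/- library 15 with laser, 330414 in wild type library 22 without laser and 211239 in wild type library 19 with laser, and to no more than 90651 elsewhere. Libraries 28, 15, 22 and 19 also had the highest Ceacam1 values of their groups, at 1171, 905.1, 5027 and 8367. The part of surface epithelium in the Ceacam1 values was not tested. Endothelial, pigment epithelium and melanocyte markers, the cells a choroid preparation should hold, were above 0 in every library.

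**Figure D1:**
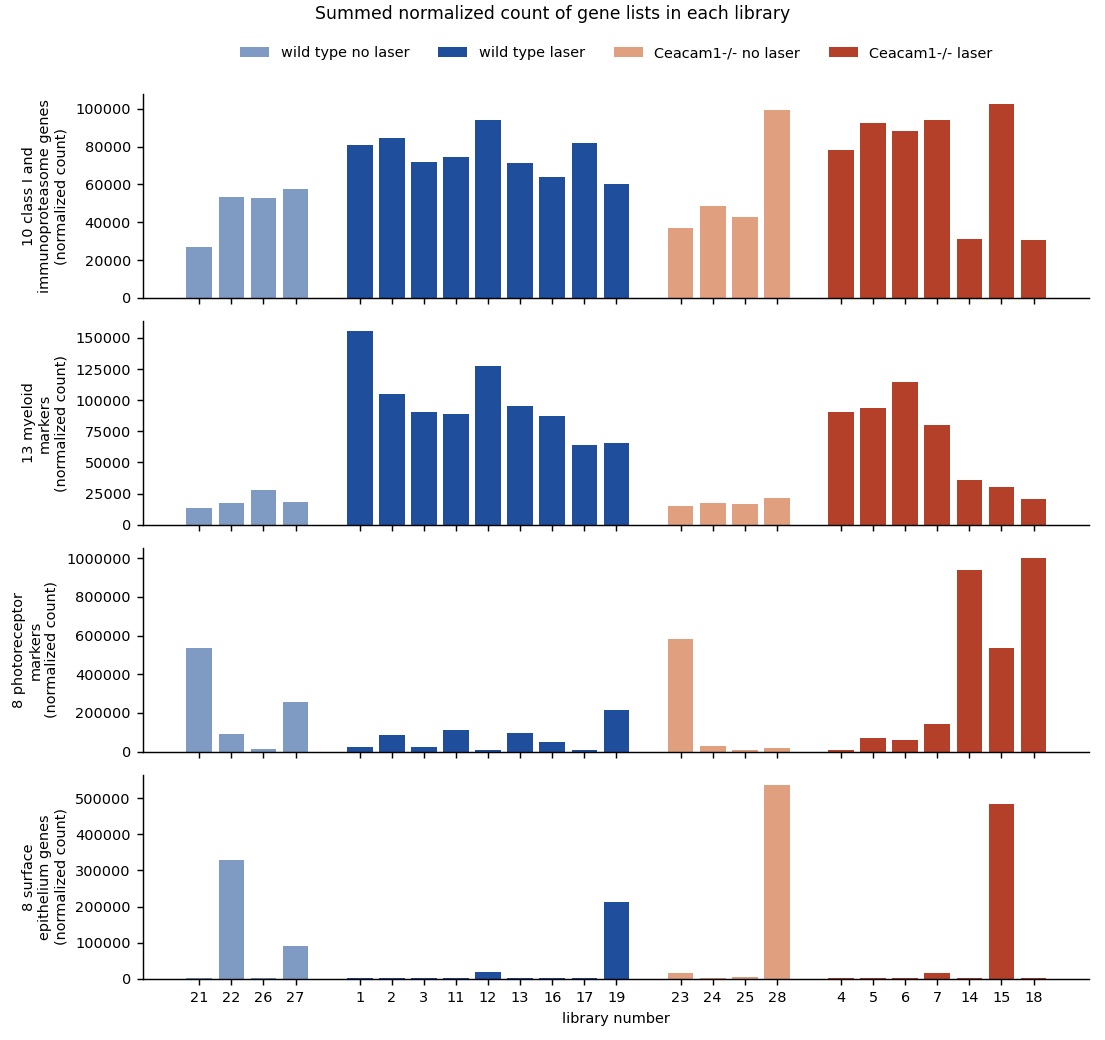
Summed normalized count (axes from 0) of the 10 class I and immunoproteasome genes, 13 myeloid markers, 8 photoreceptor markers and 8 surface epithelium genes in each of the 24 libraries, coloured by group. The class I sum is lowest in libraries 21, 14 and 18, which are among the libraries with high photoreceptor sums, and highest in libraries 15 and 28, which have the highest epithelium sums. Library 15 also has a high photoreceptor sum, and the epithelium-rich libraries 22 and 19 do not stand high in the class I sum.

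Not all of these libraries stood apart in the members' level. Summed over the 10 genes, the normalized count was 27159, 53505, 52665 and 57529 in wild type libraries 21, 22, 26 and 27 without laser, and library 21 was the lowest of its group for 9 of 10 members. Among Ceacam1-/- libraries without laser the sum was 36847, 48629, 43030 and, in library 28, 99337, and library 28 was the highest of its group for 10 of 10 members. With laser, wild type sums ran from 60127 to 94050 (median 74555), above all 4 wild type libraries without laser. B2m was the largest part of this sum in every library. Taken gene by gene, 9 of 10 members overlapped between these wild type groups. H2-D1 alone lay wholly higher with laser, as did 4.5% of all genes tested. Ceacam1-/- sums with laser ran from 30791 to 102528 (median 88232), with libraries 14 and 18 at 31114 and 30791 and the other 5 at 78037 or more. The epithelium-rich libraries 22 and 19 did not stand high in this sum, at 53505 and, the lowest of the wild type laser group, 60127. Library 22 was the highest of its group for 4 of 10 members, and library 19 for 0. Library 15 had both a high photoreceptor sum and the highest class I sum of all 24. Within the Ceacam1-/- laser group, library 15 was the highest for 7 of the 10 members and library 14 was among the 2 lowest for all 10. The part of photoreceptor or epithelial tissue in these levels was not tested on its own. Fewer cells of a type and less RNA per cell cannot be told apart in tissue RNA.

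Per kilobase of transcript the members spanned 3 orders of magnitude. B2m was the most abundant, with a mean level of 30678 ± 10714 normalized counts per kilobase (SD, n = 24), followed by H2-D1 at 7467 ± 2809 and H2-K1 at 4766 ± 2104, and this order held in all 24 libraries. H2-T23, a non-classical heavy chain that presents leader peptides to natural killer cells, was at 1568 ± 634.4 and Tapbp at 1433 ± 403.9. These neighbours were not separated, as H2-T23 was the higher in 12 of 24 libraries. Below them came Psmb8 (788.7 per kilobase), Psmb9 (490.1), Tap2 (292.0) and Tap1 (216.4), and each was above the next in at least 19 of 24 libraries. Nlrc5 was the least abundant at 29.1 ± 10.0 per kilobase, below Tap1 in 24 of 24.

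Parts of these transcripts are shared with other genes, which limits how reads can be assigned. Of the words of 31 bases in the canonical transcript, 45.1% in H2-K1, 54.0% in H2-D1 and 56.4% in H2-T23 also occur in transcripts of other genes, and 16.9% of those of H2-K1 are in H2-D1. For Psmb9 the share was 36.7%, all of it with Tap1, which overlaps it on the opposite strand. For B2m it was 0.

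**Figure D2:**
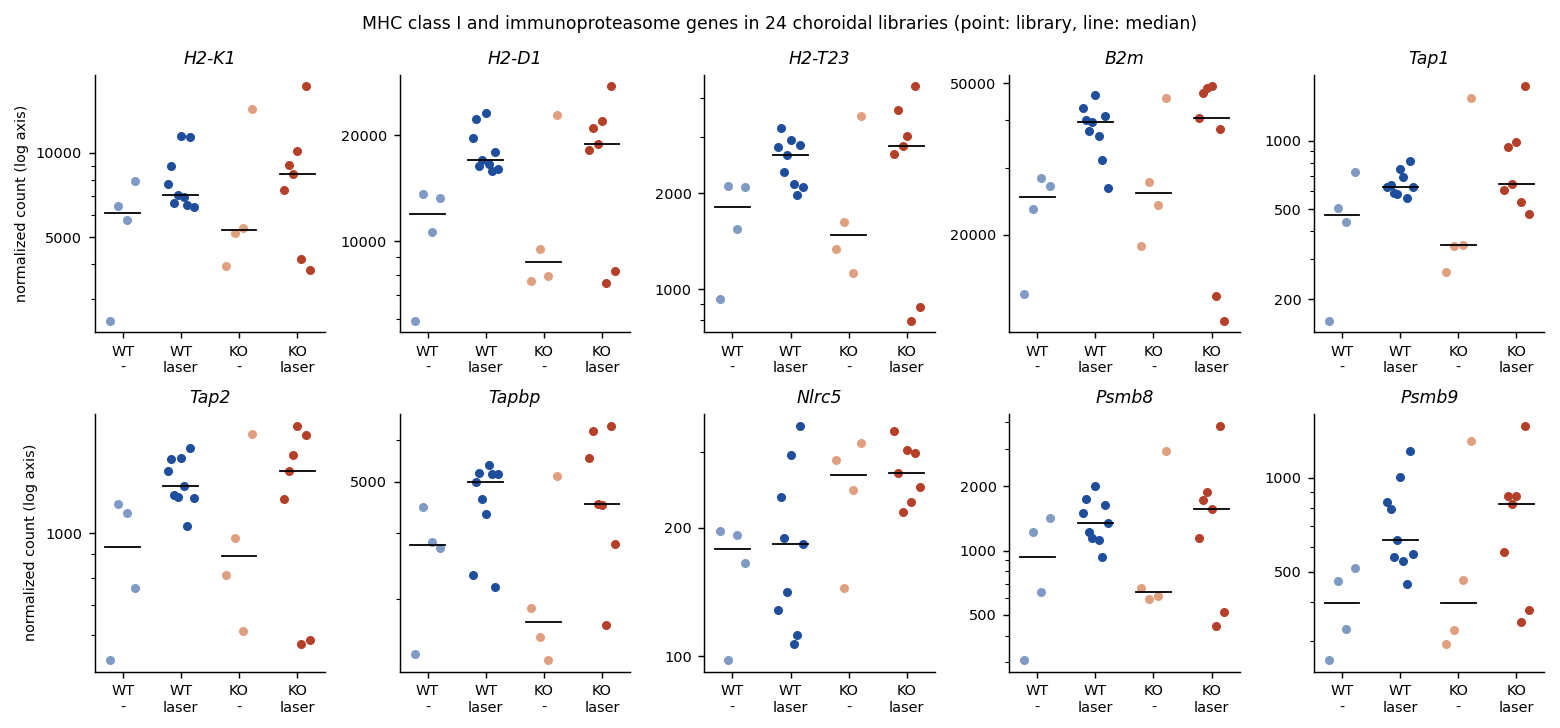
Normalized counts (log axis) of the 10 genes in the 24 libraries by group, where WT is wild type, KO is Ceacam1-/-, a dash is no laser, a point is a library and a line is the group median. H2-D1 with laser in wild type lies between 15789 and 23188, above all 4 wild type libraries without laser, while the other 9 genes overlap between those groups.

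The first question was how laser treatment moved the pathway in wild type choroid. H2-D1, a classical heavy chain, was at 5933, 13585, 10604 and 13255 normalized counts without laser and between 15789 and 23188 (median 16992) with laser. The groups did not overlap, and H2-D1 was the only member of which this held (4.5% of 19950 genes tested lay wholly higher with laser). Its log2 fold change was 0.81 ± 0.32 (SE, 95% interval 0.15 to 1.48, adjusted p = 0.148 by limma), a 1.76-fold difference that did not pass the threshold of 0.05.

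B2m, the light chain that every class I molecule needs, was at 13966, 23436, 28209 and 26941 without laser and between 26502 and 46523 (median 39491) with laser. Of the 9 laser libraries 8 exceeded the highest library without laser, and library 19 was within that group's range. Its log2 fold change was 0.75 ± 0.34 (95% interval 0.04 to 1.46, limma adjusted p = 0.2201). H2-K1, the other classical heavy chain, was at 2516, 6453, 5759 and 7911 without laser and between 6412 and 11530 (median 7101) with laser, with 3 of 9 laser libraries above the other group. For H2-K1 the log2 fold change was 0.61 ± 0.36 (limma adjusted p = 0.354), and that of H2-T23 was 0.67 ± 0.38 (limma adjusted p = 0.326).

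Among the peptide transport genes, Tap2, a subunit of the TAP pump, was at 530.7, 1159, 1107 and 760.9 without laser and between 1035 and 1536 (median 1265) with laser. All but 1 of the 9 laser libraries were above the highest library without laser. The log2 fold change of Tap2 was 0.61 ± 0.29 (limma adjusted p = 0.236). Tap1, its partner subunit, was at 160.9, 503.8, 437.6 and 726.9 without laser and between 557.8 and 814.5 (median 625.2) with laser, and 3 of the 4 libraries without laser lay below all 9. The log2 fold change was 0.69 ± 0.39 (limma adjusted p = 0.328). Tapbp, which encodes the loading chaperone tapasin, had a log2 fold change of 0.37 ± 0.23 (limma adjusted p = 0.386), with 6 of 9 laser libraries above the other group.

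Of the immunoproteasome subunits, Psmb9, which replaces Psmb6, was at 261.2, 468.2, 328.7 and 514.2 without laser and between 455.4 and 1213 (median 633.7) with laser, with 8 of 9 laser libraries above the other group. Its log2 fold change, 0.88 ± 0.37 (95% interval 0.11 to 1.65, limma adjusted p = 0.182), was the largest of the 10. Psmb8, which replaces Psmb5, was at 307.9, 1226, 643.5 and 1424 without laser and between 932.3 and 2009 (median 1353) with laser. The difference in Psmb8 was 0.84 ± 0.49 on the log2 scale (limma adjusted p = 0.345). Nlrc5, the transactivator of the class I genes, was at 196.9, 98.1, 192.5 and 165.0 without laser and between 106.8 and 346.8 (median 183.6) with laser. With a log2 fold change of 0.18 ± 0.29 (limma adjusted p = 0.749) it had the smallest difference of the members.

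Over the set in wild type mice, 0 of 10 members passed the test, against 5.28% of all genes tested (4.23% higher). All 10 log2 fold changes were above 0, as were those of 42.1% of all genes, and their median was 0.68 against −0.10 over all genes. Apart from Nlrc5 the members varied together within groups, so these directions are not independent. At an unadjusted p under 0.05 by limma, 4 of 10 were higher (H2-D1, B2m, Tap2 and Psmb9), against 11.5% of genes. A fold change is on the scale of log2 of the value plus 1, which understates differences of low genes. The calls differed with the 13 wild type libraries alone in the fit, which also changed the genes tested (19529 in place of 19950). In that fit H2-D1 (adjusted p = 0.0183 by limma), B2m (0.0296), Psmb9 (0.0398), H2-T23 (0.0468) and Tap2 (0.0478) passed, among 2274 genes called (11.6% of those tested) in place of 1053. Library 21 carried much of the size. Without it the members' median log2 fold change was 0.39 and 0 of 10 had an unadjusted p under 0.05 in limma, where 15.1% of all genes did and 2.4% were called.

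**Figure D3:**
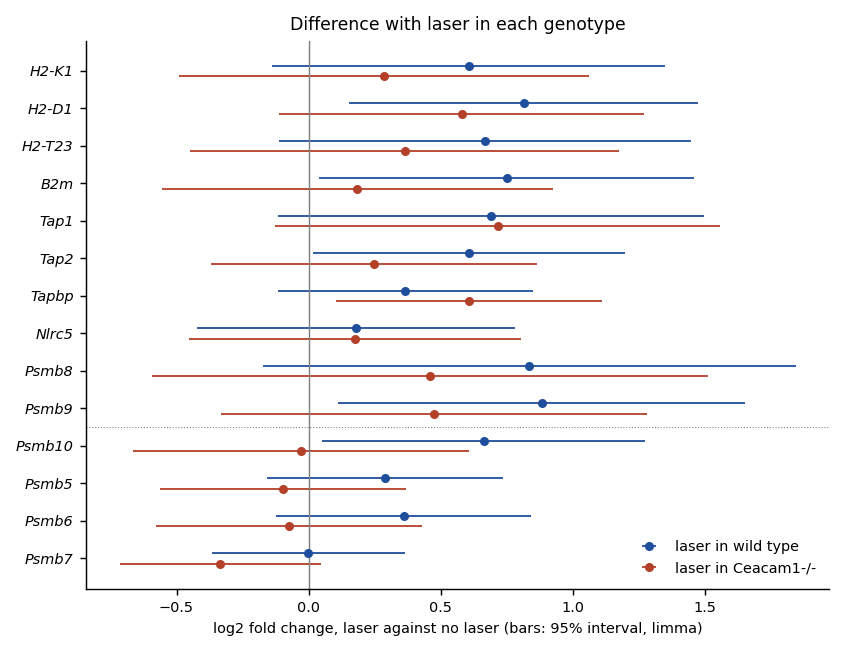
Log2 fold change between libraries with and without laser in wild type (blue) and Ceacam1-/- mice (red), with 95% intervals from limma, for the 10 genes and, below the dotted line, Psmb10 and the constitutive subunits Psmb5, Psmb6 and Psmb7. All 20 values of the 10 genes are above 0, and the intervals of 4 genes in wild type and 1 in Ceacam1-/- mice stay above 0.

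In Ceacam1-/- mice the laser groups overlapped for all 10 members (1.17% of genes tested lay wholly higher). H2-D1 was at 7694, 9463, 7963 and 22786 without laser and between 7584 and 27600 (median 18917) with laser. The highest library without laser was the epithelium-rich library 28, and the lowest libraries with laser, at 7584 and 8206, were the photoreceptor-rich libraries 14 and 18. The log2 fold change of H2-D1 was 0.58 ± 0.33 (limma adjusted p = 0.345). B2m was at 18680, 27447, 23950 and 45765 without laser and between 11879 and 49172 (median 40464) with laser, with a log2 fold change of 0.18 ± 0.36 (limma adjusted p = 0.808). B2m, Tap2 and Nlrc5 were the members that were not highest in library 15, where B2m was at 37881.

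Tapbp was at 2877, 2536, 2295 and 5135 without laser and between 2671 and 6398 (median 4535) with laser. It was the member with an unadjusted p under 0.05 in this comparison, with a log2 fold change of 0.61 ± 0.24 (95% interval 0.10 to 1.11, limma adjusted p = 0.159). Tap1 was at 263.5, 344.9, 346.4 and 1539 without laser and between 475.6 and 1740 (median 645.4) with laser, so that 3 of the 4 libraries without laser lay below all 7 with laser. Its log2 fold change, 0.72 ± 0.41 (limma adjusted p = 0.339), was the largest of the set here. Psmb8 was at 669.2, 592.9, 615.3 and 2933 without laser and between 443.8 and 3849 (median 1571) with laser. The remaining members, H2-K1, H2-T23, Tap2, Nlrc5, Psmb8 and Psmb9, had log2 fold changes between 0.18 and 0.47.

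Over the set in Ceacam1-/- mice, 0 of 10 passed limma's test, against 3.72% of all genes (2.07% higher). The directions of the members are not independent here either. All 10 log2 fold changes were above 0, against 51.2% of genes, with a median of 0.41 against 0.02, and 1 of 10 was higher at an unadjusted p under 0.05 in limma against 9.4%. These calls turned on library 28. Without it the median was 0.78, and Tap1 (log2 fold change 1.29, limma adjusted p = 0.0444) and Tapbp (0.86, limma adjusted p = 0.0478) passed, with 3.99% of all genes called. Without library 15 the median was 0.20. Without the 5 photoreceptor-rich libraries the median laser difference was 0.39 (wild type) and 0.54 (Ceacam1-/-), and without the 4 epithelium-rich libraries it was 0.82 and 0.65. In each of these fits 0 of 10 members passed limma's test, against 8.39% and 14.9% of all genes without the photoreceptor-rich and 4.05% and 3.22% without the epithelium-rich libraries. At an unadjusted p under 0.05 by limma there were 3 and 5 of 10 members (22.7% and 28.8% of genes) without the former and 8 and 4 of 10 (18.6% and 17.2%) without the latter. With libraries weighted by their scatter in limma (array weights), H2-D1, H2-T23, Tapbp and Psmb9 passed in Ceacam1-/- mice and H2-D1, B2m and Tap2 in wild type mice, where 17.8% and 32.6% of all genes were called (3551 and 6505), so the wild type share of members was near the background. The members' median under these weights was 0.81 (Ceacam1-/-) and 0.38 (wild type), in place of 0.41 and 0.68. The test of the difference between these laser effects (interaction) called 0 of 10 members, and 0.0% of genes tested. The interaction was above 0 for 2 of 10 members, against 50.5% of genes. This direction turned with array weights and with the myeloid marker score as a covariate (9 of 10 above 0 in each), with the photoreceptor marker score as a covariate (7 of 10), and without the photoreceptor-rich libraries or without library 28 (8 of 10 in each, with medians of 0.16 and 0.10). Members ranged from −0.57 ± 0.50 for B2m (95% interval −1.59 to 0.46) to 0.24 ± 0.34 for Tapbp (−0.46 to 0.94), and 0 of 10 had an unadjusted p under 0.05 in limma (6.22% of genes).

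The second question was whether loss of CEACAM1 moved the pathway. Without laser, the test of 4 Ceacam1-/- against 4 wild type libraries called 0 of 10 members and 0.0% of 20057 genes, and 0 of 10 had an unadjusted p under 0.05 in limma (1.53% of genes). Ceacam1, the deleted gene, was thus not called either, so the absence of calls says little of the members. Between these groups the paper did call some genes, with DESeq2 and sex as a covariate. The labels do not give the sex, and the fit here lacked it. Log2 fold changes of Ceacam1-/- over wild type ran from −0.20 ± 0.30 for Tapbp to 0.59 ± 0.35 for Nlrc5, with a median of 0.24 against −0.02 over all genes, and 9 of 10 were above 0 against 47.9% of genes. All 10 members overlapped (0.922% of genes lay wholly higher). In 9 of 10 members library 28 was the single Ceacam1-/- library above all 4 wild type libraries, and for Nlrc5 3 of 4 were above. With laser, 7 against 9 libraries, 0 of 10 members and 0.0202% of genes passed. The log2 fold changes ran from −0.27 ± 0.30 for B2m to 0.59 ± 0.24 for Nlrc5, with a median of −0.08 against 0.01, and 3 of 10 were above 0 against 51.2%. The groups overlapped for all 10 members (0.0759% of genes lay wholly higher). The direction of both medians turned on single libraries. Without laser the median was −0.18 without library 28 and −0.11 without library 21, and with laser it was 0.12 without library 14 and 0.0918 without library 18. Without the photoreceptor-rich libraries the medians were 0.0355 and 0.19, and without the epithelium-rich libraries −0.0447 and −0.29, with 0 of 10 members called by limma in each. Of all genes, 0.0% without laser were called in either of these fits, and with laser 0.0104% without the photoreceptor-rich and 0.0306% without the epithelium-rich libraries.

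Tissue markers were read beside the genotype comparison with laser. The median log2 fold change of Ceacam1-/- over wild type was 1.97 for the 8 photoreceptor markers, −1.56 for 7 pigment epithelium, −1.34 for 7 skeletal muscle, −1.07 for 5 melanocyte, −0.53 for 9 endothelial and −0.50 for 13 myeloid markers, and −0.81 for 6 class II genes. No gene of these lists passed limma's test, and in this order 4, 6, 7, 1, 2, 4 and 6 of their genes had an unadjusted p under 0.05, against 22.7% of genes. For T and NK cell markers the median was 0.32, with 8 of 11 tested above 0 and 0 at an unadjusted p under 0.05 in limma. Without laser the medians were −1.68 for photoreceptor markers and 2.27 for the surface epithelium genes, and none of either had an unadjusted p under 0.05. The part of these tissues in the members' genotype differences, Nlrc5 included, was not tested on its own.

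Nlrc5 was the member whose genotype difference was largest in both states. It was at 287.6, 144.7, 244.5 and 316.2 in Ceacam1-/- libraries without laser and between 218.1 and 336.7 (median 268.4) with laser, where all 7 lay inside the wild type range of 106.8 to 346.8 and above 6 of the 9 wild type libraries. With laser the difference had an unadjusted p of 0.0264 and an adjusted p of 0.184 in limma, where 22.7% of genes had an unadjusted p under 0.05. No member had one without Ceacam1-/- library 4 (29.5% of genes), wild type library 13 (20.9%) or wild type library 16 (18.9%), nor without the photoreceptor-rich (8.4%) or the epithelium-rich libraries (19.4%). The interval ran from 0.08 to 1.101 on the log2 scale with laser and from −0.20 to 1.38 without. The laser and genotype comparisons use the same libraries, so they are not independent.

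RNA of each immunoproteasome subunit was read as a ratio to that of the constitutive subunit it replaces. A ratio within a library does not depend on library scaling. It is a ratio of tissue RNA, not of subunits in proteasomes, and the part of cell content in it was not tested. Psmb8 to Psmb5 was −1.98 ± 0.86 on the log2 scale (SD, n = 4) without laser and −1.43 ± 0.29 (n = 9) with laser in wild type mice, a difference of 0.55 (p = 0.146, two-sided exact permutation test, adjusted p = 0.582 over 16 tests). Psmb9 to Psmb6 differed by 0.52 (exact permutation p = 0.0280, adjusted p = 0.224). Psmb10 to Psmb7, the pair for the remaining catalytic site, differed by 0.66, from −2.26 ± 0.36 to −1.60 ± 0.35 (exact permutation p = 0.00839, adjusted p = 0.134), and 8 of the 9 laser libraries lay above all 4 without laser. The 3 differences in Ceacam1-/- mice were 0.56, 0.55 and 0.31 (exact permutation, adjusted p = 0.661 for each). Genotype differences of these ratios lay between 0.11 and 0.51 (lowest adjusted p = 0.582, exact permutation). That of Psmb10 to Psmb7 kept its direction whichever library was left out, at 0.28 to 0.62 without laser and 0.0866 to 0.27 with laser, while the direction of the other 2 ratios turned on single libraries. Psmb8 to Psmb5 was −0.44 without library 28 and −0.26 without library 21 in mice without laser, and −0.14 without library 15 with laser. Psmb9 to Psmb6 was −0.35, −0.0127 and −0.0562 without the same libraries. Single libraries moved laser differences by over 1.5 times. Psmb8 to Psmb5 differed with laser by 0.17 without library 21 and 0.84 without library 27 in wild type mice, and by 1.11 without library 28, 0.29 without library 15, 0.35 without library 24 and 0.13 without library 25 in Ceacam1-/- mice. Psmb9 to Psmb6 in Ceacam1-/- mice differed by 1.02 without library 28, 0.35 without library 15 and 0.30 without library 25, and Psmb10 to Psmb7 by 0.54 without library 28 and 0.19 without library 25. None of the 16 tests passed after adjustment, and the smallest unadjusted p the wild type laser comparison allows is 0.0028.

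The summed classical heavy chains H2-K1 and H2-D1 had nearly equal mean ratios to B2m in both wild type groups. The log2 ratio was −0.52 ± 0.28 (n = 4) without and −0.52 ± 0.16 (n = 9) with laser, a difference of −0.00 (exact permutation p = 0.985). This ratio differed by 0.29 in Ceacam1-/- mice (exact permutation p = 0.224, adjusted p = 0.661), with library 15 highest at 0.25. Without library 15 the difference was 0.19, and it ran up to 0.42 without library 28.

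**Figure D4:**
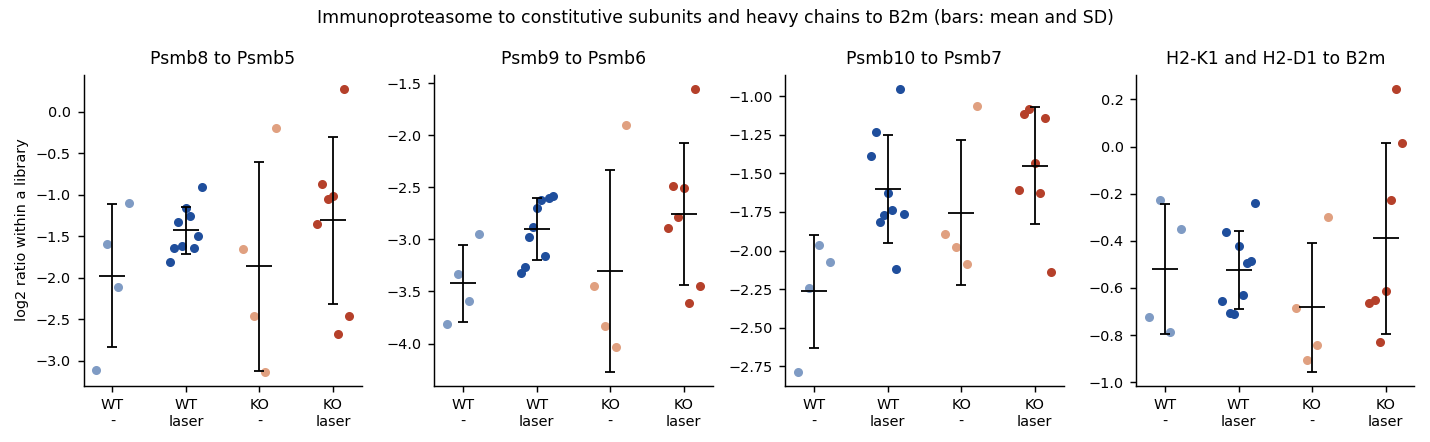
Log2 ratio within a library of each immunoproteasome subunit to the constitutive subunit it replaces, and of summed H2-K1 and H2-D1 to B2m, by group (WT wild type, KO Ceacam1-/-, dash no laser), with points for libraries and bars for mean and SD. Wild type subunit ratios are higher on average with laser by 0.55, 0.52 and 0.66, while the heavy chain ratio differs by −0.00.

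The other genes of the pathway were counted from lists. Of 16 other class I and class I-like heavy chains 12 were tested, and Cd1d1, which presents lipids to NKT cells, rose with laser in wild type mice (log2 fold change 1.13 ± 0.25, limma adjusted p = 0.00856). For this list and those below, 4.23% of all genes were called higher and 5.28% either way in wild type, and 2.07% and 3.72% in Ceacam1-/- mice. None of the 12 fell, and none passed in Ceacam1-/- mice, where Cd1d1 was at 0.62 ± 0.26 (limma adjusted p = 0.188). Of 18 other loading and trimming genes, including calreticulin and Erap1, 0 passed in either genotype, with median log2 fold changes of 0.34 and 0.16. Psmb10, the remaining immunoproteasome subunit, was at 0.66 ± 0.30 in wild type (limma adjusted p = 0.206) and −0.03 ± 0.31 in Ceacam1-/- mice (adjusted p = 0.964). Of 14 constitutive subunits of the 20S proteasome 0 passed, and their median was 0.28 in wild type and −0.07 in Ceacam1-/- mice, lower than that of the members in both. Psmb5, Psmb6 and Psmb7 were at 0.29, 0.36 and −0.00 in wild type and at −0.10, −0.07 and −0.33 in Ceacam1-/- mice on this scale.

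Among 26 interferon and promoter regulators 24 were tested, and Ifnar2, a receptor chain for type I interferons, rose with laser in wild type mice (1.04 ± 0.29, limma adjusted p = 0.0386). This 1 call of 24 is near the 4.23% of all genes called higher. No other passed and none passed in Ceacam1-/- mice. Ifng, the gene of interferon-gamma, and Ifnb1 were below the filter. Ifng was above 0 in 1 of 4 wild type and 1 of 4 Ceacam1-/- libraries without laser and in 3 of 9 and 4 of 7 with laser, and never above 5.93. Genotype and interaction tests called no gene of any list.

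Markers of immune cells were read beside the members. Of 13 myeloid markers 12 rose with laser in wild type mice and 8 in Ceacam1-/- mice by limma, with median log2 fold changes of 2.21 and 1.56. Their sum, led by Lyz2 in every library and with no marker at 0, ran from 13413 to 27579 in wild type libraries without laser and from 63919 to 155604 with laser. In Ceacam1-/- libraries it ran from 15358 to 21209 and from 20871 to 114464, and was lowest with laser in libraries 18, 15 and 14. Library 15 thus combined a myeloid sum of 30660 with the highest class I sum. With the myeloid score as a covariate, the members' median log2 fold change was −0.42 in wild type and −0.30 in Ceacam1-/- mice. Since the myeloid sums of the wild type groups do not overlap, laser and myeloid content cannot be told apart there.

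The MHC class II genes are expressed by antigen-presenting cells. Of 6, 5 rose with laser in wild type mice by limma, among them H2-DMa (log2 fold change 1.47), H2-Ab1 (1.67), H2-Eb1 (1.59) and Cd74 (1.49). Of the 6, 0 passed in Ceacam1-/- mice, with a median of 0.79, and the interaction test called none.

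Within groups the members varied together, with Nlrc5 apart. After each gene was centred on its group means, the correlation across the 24 libraries was between 0.48 and 0.97 (median 0.85) for the 36 pairs without Nlrc5 and between −0.03 and 0.41 (median 0.19) for the 9 pairs with it. The libraries share tissue content and depth, so these are descriptions. Against the mean standardized value of the other 9 members, r was 0.98 for H2-D1, 0.84 for B2m, 0.65 for Tapbp and 0.23 for Nlrc5. Against the mean of all 10, the genes outside the set most like it among 19950 were H2-Q4 (0.95), Phf11d (0.94), Oas1a (0.94), Ly6e (0.94) and Sp100 (0.93). H2-Q4 is a further class I heavy chain of chromosome 17 that shares sequence with this family, and Oas1a is known as an interferon-induced antiviral enzyme. Irf1, an interferon-induced transcription factor, had an r of 0.89, while the constitutive subunits Psmb5, Psmb6 and Psmb7 had 0.30, 0.28 and 0.22.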

How the data were processed

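Mouse choroidal RNA of 24 libraries was read from 1 table. The authors made SMART-Seq libraries, quantified reads with Salmon 1.10.3 against GRCm39, imported them with tximport and deposited the signal as counts normalized by DESeq2 1.44.0 (FastQC 0.11.5 for read quality). Between 30.6% and 73.0% of low values lay within 5% of a whole step, so reads were not recovered and count models not run. Groups came from the labels.

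Differences were tested with limma 3.58.1 (trend, R 4.3.3) on log2 of the value plus 1, for genes with a mean of at least 10, with Benjamini-Hochberg adjustment over all genes. Laser and interaction used all 24 libraries, and genotype the 8 libraries without or the 16 with laser. Ratios were tested with scipy 1.17.1 in Python 3.11.15. The method was tested on simulated data, and the outcome is not reported here. Gene positions came from GENCODE, of which 99.1% of identifiers matched, and promoters from RefSeq.

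The named genes are the members, list genes past the threshold (the 4 of lowest p where more passed), the proteasome subunits beside them and the 5 genes most like the members. Ceacam1, Irf1, Ifng and Ifnb1 were named after their values were seen. The values of some list genes are not reported here. Members and lists were chosen with earlier results of these data known. Alternatives were pseudocounts, filters, scalings, weights, covariates, other libraries in the fit and each library left out. Leaving out photoreceptor-rich (sum above 500000) or epithelium-rich (above 200000) libraries was chosen after seeing the data. Salmon divides reads shared between genes by estimation. Whether counting used strand is not given in the sources used here.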

Additional observations from a re-analysis of the deposited data

Results flagged for a closer look

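Of 40 sets of values examined (10 genes in 4 groups), 6 held a library far from the rest of its group. Chance flags about 1 in 20 sets, but the members vary together and the 6 cases are 2 libraries, so they are not independent. In Ceacam1-/- mice without laser, library 28 was far above the other 3 libraries for H2-K1 (14405, next 5407), H2-D1 (22786, next 9463), Tap1 (1539, next 346.4) and Psmb8 (2933, next 669.2). In Ceacam1-/- mice with laser, library 15 was far above the other 6 for Tap1 (1740, next 990.0) and Psmb8 (3849, next 1881). These libraries also had the 2 highest sums of surface epithelium genes, 538037 and 485915, a list written after values were seen. The part of that tissue in the flagged values was not tested. The other epithelium-rich libraries, 22 and 19, did not stand high in the members' sum (53505 and 60127). Library 15 was photoreceptor-rich as well (536509). Without the 4 epithelium-rich libraries the members' median log2 fold change with laser was 0.82 (wild type) and 0.65 (Ceacam1-/-), with 0 of 10 members past limma's threshold in either (4.05% and 3.22% of all genes) and 8 and 4 of 10 at an unadjusted p under 0.05 (18.6% and 17.2% of genes).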

How the results depend on the processing

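Fold changes were followed for all 10 members for laser, and for the lowest and the highest member in each other comparison. Of these values under settings other than leaving out a library, 326 kept direction and call, 24 reversed and 12 passed the threshold where they had not. The count of members called was 0 in every comparison under all settings except these. For laser in wild type mice it was 3 with array weights and 5 with only the compared libraries in the fit, and for laser in Ceacam1-/- mice it was 4 with array weights, 1 (B2m, lower) with the myeloid covariate, where 31.7% of all genes were called, and between 0 and 2 when each library was left out. The cause of these changes was not tested. Members above 0 for genotype with laser, 3 of 10, numbered 10 with array weights, with either covariate of tissue content and without the photoreceptor-rich libraries. For genotype without laser, 9 of 10, they numbered 3 with array weights and with the myeloid covariate. With a covariate from Y-linked genes, members above 0 for genotype with laser numbered 5 of 10. Genes at an unadjusted p under 0.05 in limma then numbered 2196 (11.1%) in place of 4479 (22.7%).

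Genes called for laser in wild type mice numbered 6505 with array weights, 2274 with only the compared libraries and 1645 without the photoreceptor-rich libraries, and between 479 and 1257 when each library was left out, lowest without library 21. For laser in Ceacam1-/- mice they numbered 437 without a filter, 3551 with array weights, 38 with only the compared libraries, 6331 with the myeloid covariate and 2923 without the photoreceptor-rich libraries, and between 148 (without library 25) and 2488 (without library 23) when each library was left out. For genotype without laser, upper-quartile scaling, limma without trend and array weights each called 1, and leaving out a library gave between 0 and 1. For genotype with laser the count was 2 at a mean of at least 50, 297 with array weights, 9 in the model of all 24 libraries and 2 without the photoreceptor-rich libraries, and between 4 and 61 when each library was left out.

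With the myeloid covariate, laser differences reversed to −0.42, −0.42, −0.86, −1.09, −0.63, −0.12, −0.60 and −0.04145 for H2-K1, H2-D1, H2-T23, B2m, Tap2, Tapbp, Psmb8 and Psmb9 in wild type mice. The values in Ceacam1-/- mice were −0.38, −0.21, −0.63, −1.002, −0.55, −0.47 and −0.12 for H2-K1, H2-D1, H2-T23, B2m, Tap2, Psmb8 and Psmb9. For B2m the interaction was 0.0418 with array weights, 0.0883 with the myeloid covariate, 0.0226 with the photoreceptor covariate and 0.0464 without the photoreceptor-rich libraries, and the genotype difference with laser was 0.24, 0.19, 0.13 and 0.30. The laser difference of Nlrc5 in wild type mice was −0.0497 without the epithelium-rich libraries. Leaving out each library moved it between −0.0448 and 0.29 in wild type and between −0.0623 and 0.31 in Ceacam1-/- mice.

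Leaving out each library moved the members' median laser difference between 0.39 and 0.82 in wild type and between 0.20 and 0.78 in Ceacam1-/- mice, and their median interaction between −0.46 and 0.10. It moved the heavy chain to B2m ratio difference between −0.0906 and 0.096 for laser in wild type mice. The genotype difference of Psmb8 to Psmb5 moved between −0.14 and 0.35 with laser and between −0.44 and 0.54 without, and that of Psmb9 to Psmb6 between −0.0562 and 0.29 and between −0.35 and 0.36. The remaining ratio differences kept their direction but not their size, with ranges for laser of 0.17 to 0.84 (Psmb8 to Psmb5, wild type), 0.13 to 1.11 (Psmb8 to Psmb5, Ceacam1-/-) and 0.30 to 1.02 (Psmb9 to Psmb6, Ceacam1-/-). The reads behind each value are not known, so counting error could not be given. No paired analysis was possible because the labels do not give the animal of a library.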

Other observations

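Markers of other cell types in the tissue were read from lists. Of 14 T and NK cell markers 10 were tested for laser, and the NK receptor genes Klrd1 in wild type mice (log2 fold change 1.98, limma adjusted p = 0.0059) and Klrk1 in Ceacam1-/- mice (2.46, limma adjusted p = 0.00976) rose. This is 1 of 10 in each genotype, where 4.23% and 2.07% of all genes were called higher. The Klrd1 product is a chain of the receptors that are known to bind the H2-T23 product. The T and NK list summed to a median of 318.0 in wild type and 271.1 in Ceacam1-/- libraries without laser and to 428.3 and 495.4 with laser, with overlap between groups in each genotype, and was led by Trac in 9 libraries. Whether these receptors rose in only 1 genotype was not tested beyond the interaction, which called neither.

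No endothelial, pigment epithelium, photoreceptor, melanocyte, skeletal muscle, lens or surface epithelium gene of the lists passed limma's test in any comparison. The median log2 fold changes with laser were 0.42 in wild type and −0.13 in Ceacam1-/- mice for endothelial markers, −0.12 and −1.66 for pigment epithelium markers, 0.54 and −0.41 for melanocyte markers, −0.94 and −2.06 for skeletal muscle markers, 1.60 and 1.39 for lens markers, −1.48 and 2.23 for photoreceptor markers and −0.81 and −2.78 for surface epithelium genes.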
